A study of Homo sapiens with 10 samples.

Results

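The adhesion G protein-coupled receptors, a family of large surface receptors, were followed through the differentiation of human embryonic stem cells into thyroid organoids. The members were chosen by name, as every gene symbol of the form ADGR followed by a letter and a number, with no threshold on their counts, which gave 28 of the 28265 symbols in the count tables. The 3 CELSR genes belong to the family by homology and carry another symbol, so they were not counted among the 28 and are described beside them. The family was singled out with earlier results of these data known, and the values below describe it and were not used as independent evidence.

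RNA-seq was performed on live NKX2-1GFP+ cells, sorted after trypsin dissociation, in 2 libraries at each of days 16, 23, 31, 38 and 45. All 10 libraries came from 1 line, ESIBIe003-A-6, which carries GFP at one NKX2-1 allele and a doxycycline-inducible NKX2-1 and PAX8 cassette, used for a short pulse before the first of these days. The labels name c-AMP for days 16, 23 and 31, TSH and DEX (dexamethasone, a glucocorticoid) for day 38, and TSH and SB (the TGFβ receptor inhibitor SB431542) for day 45. By the study's methods, the cells were in basal medium until day 16, when the cAMP analogue was first added. TSH took its place and dexamethasone was added on the day before day 31. The inhibitor was added on day 38 or the day before, as both are stated, and dexamethasone was also in the medium of day 45. The day-16 libraries, labelled c-AMP, may thus have met little or none of it, the day-31 libraries with the same label may already have had the new medium, and those of day 38 may already have had the inhibitor. Each of the 5 comparisons therefore spans a change of medium by the labels, by the methods or by both. The effect of time and the effect of the medium cannot be told apart in these libraries. Cells kept on cAMP to the last days were not analysed here. Counted reads per library ran from 7247268 to 10333933. Levels are given as CPM, counts scaled to library size with TMM factors (edgeR's correction for composition), and a floor of 3 counts came to 0.307 to 0.436 CPM, which covers counting error only. NKX2-1 itself was at 86.9, 136, 154, 143 and 62.4 CPM on the 5 days in order, and EPCAM and CDH1, which mark epithelial cells, were present in every library.

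Adhesion receptors have a long extracellular part that binds matrix proteins or proteins on neighbouring cells, and most are cut at an autoproteolysis site beside the membrane. Removal or movement of the cut part exposes a tethered agonist, a short peptide that activates the receptor from within, and different members couple to Gs, which raises cAMP, to Gi or Gq, or to the G12/13 proteins that act on RhoA. Members are known from fluid handling in ducts, surfactant control in lung, myelination, synapse formation and hearing.

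The count filter (at least 5 counts in at least 2 libraries) was passed by 24 members. The test for any difference among the days called 15 of them, against 36.3% of all 21014 genes tested. The same 15 were called in at least 1 of the 5 comparisons of days. For that second count the share of all genes was not computed. Calls rest on the quasi-likelihood F test of edgeR, adjusted after Benjamini and Hochberg over all genes tested, at a threshold of 0.05, and log2FC stands for the log2 fold change, later day against earlier day. Adjacent comparisons share the libraries of 1 day, so a gene that peaks on that day is called in both. From day 16 to day 23, 4 members rose (ADGRF1, ADGRF5, ADGRG1 and ADGRG6) and 0 fell, against 5.6% of all genes called higher and 5.33% called lower. At an unadjusted p under 0.05, edgeR gave 5 members higher and 5 lower at that step, against 11.5% and 11.6% of all genes, and DESeq2 called 4 higher and 3 lower (ADGRA3, ADGRE2 and ADGRG2), against 7% and 6.9% of the 18569 genes for which it gave an adjusted p. From day 23 to day 31, 2 rose (ADGRF1 and ADGRF5) and 1 fell (ADGRG2), against 1.58% and 0.666% of all genes. From day 31 to day 38, 5 rose (ADGRA3, ADGRB2, ADGRD1, ADGRG1 and ADGRG2) and 2 fell (ADGRF1 and ADGRF5), against 8.8% and 6.23%. From day 38 to day 45, 1 rose (ADGRD1) and 5 fell (ADGRA3, ADGRB3, ADGRG2, ADGRL2 and ADGRL3), against 4.85% and 6.35%. Over the whole course, day 45 against day 16, 8 were higher (ADGRA2, ADGRB1, ADGRD1, ADGRF1, ADGRF5, ADGRG1, ADGRG6 and ADGRL1) and 4 were lower (ADGRA3, ADGRG2, ADGRL2 and ADGRV1), against 12.9% and 11.7%. The median log2FC over the 24 members was 0.15, 0.33, 0.10 and 0.00 at the 4 consecutive steps and 1.20 over the whole course, where that of all genes lay between −0.02 and 0.00. These counts and medians are over members that passed the filter, and a low member could pass through the days on which it was high. Without TMM factors the median of all genes from day 31 to day 38 was −0.20, and changes near 0 at that step depend on the scaling.

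**Figure D1:**
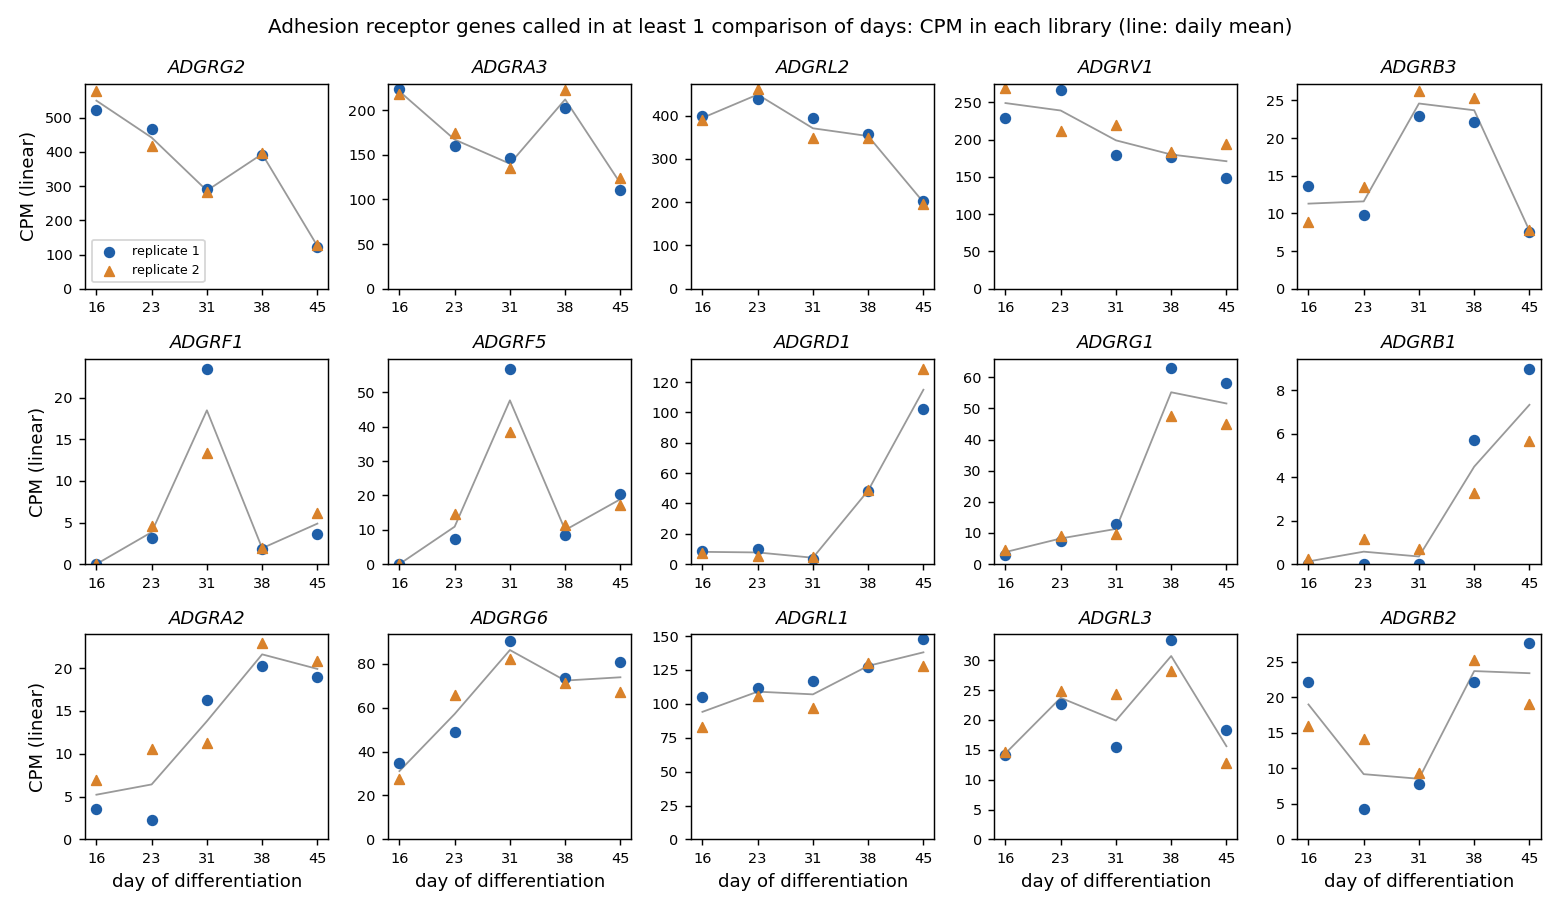
CPM (vertical, linear, from 0) against day of differentiation (horizontal) for the 15 members called in at least 1 comparison, with a point for each library (circle, replicate 1; triangle, replicate 2) and a line through the daily means. ADGRF1 and ADGRF5 peak on day 31, ADGRD1 and ADGRG1 step up on day 38, and ADGRG2, ADGRA3 and ADGRL2 reach their lowest values on day 45.

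Set side by side per length, 3 members made up most of the family's transcripts on day 16. On the scale of CPM per kb of the longest annotated transcript, ADGRG2 stood at 95 ± 6.55 (SD, n = 2), ADGRA3 at 48.3 ± 0.865 and ADGRL2 at 45.1 ± 0.793. ADGRG2 alone took 40.7% of the summed level of the 28 members. Its share was 35.6% on day 23, 26.2% on day 31, 29.5% on day 38 and 13.6% on day 45. The summed level itself was 234 ± 0.544 on day 16 and 158 ± 2.79 on day 45, with 214, 189 and 231 between them. By day 45 ADGRG2 no longer led, and ADGRA3 (25.7 ± 1.91), ADGRL2 (22.8 ± 0.672), ADGRG2 (21.6 ± 0.606), ADGRL1 (17.5 ± 1.83) and ADGRD1 (16.3 ± 2.65) followed each other closely on the same scale. The libraries of ADGRL1 and ADGRD1 overlapped on day 45, while those of the other neighbours in that order did not. The order depends on the length used, and with the union of all annotated exons ADGRL1 came first on day 45, at 16.2 ± 1.7.

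**Figure D2:**
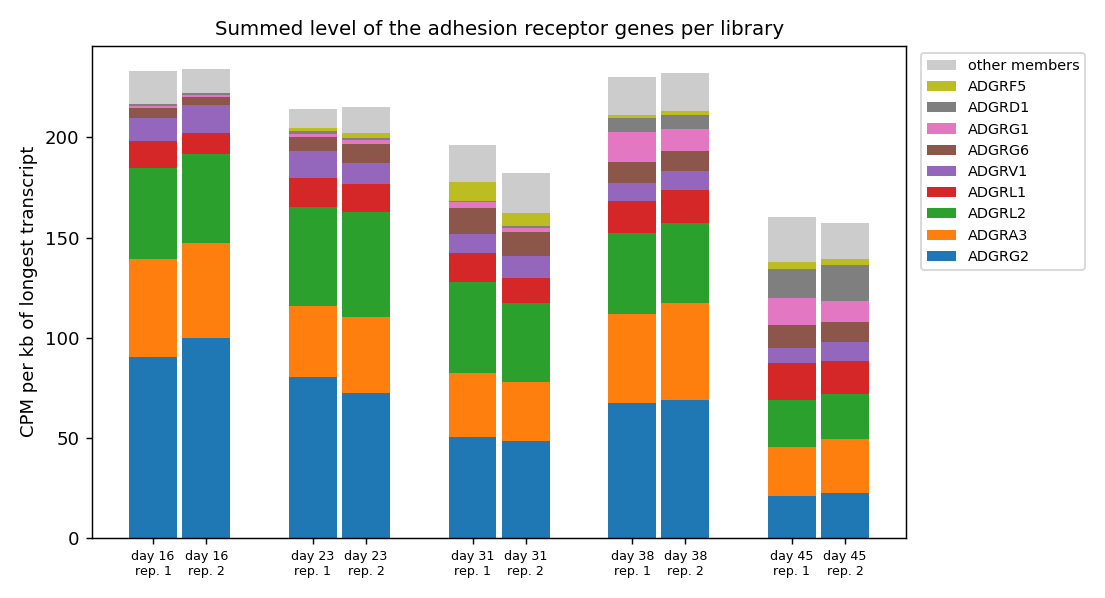
Summed level of the family in each of the 10 libraries, as CPM per kb of longest transcript (vertical, from 0), split into 9 members and all others. The blue ADGRG2 segment shrinks from 40.7% of the bar on day 16 to 13.6% on day 45, while the segments of ADGRD1 and ADGRG1 are taller on days 38 and 45 than on any earlier day.

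ADGRG2, known as a receptor of the fluid-resorbing epithelium of the epididymal ducts, lies on the X chromosome (GRCh38, X:18989307-19122637, minus strand). Its counts were 4127 and 4685 on day 16, 4208 and 3646 on day 23, 2857 and 2422 on day 31, 3607 and 3421 on day 38, and 843 and 1166 on day 45. Both libraries of day 45 were below every other library. In CPM the gene stood at 550 ± 37.9, 442 ± 35, 287 ± 7.5, 394 ± 6.19 and 125 ± 3.51 (SD, n = 2). The log2FC of day 45 against day 16 was −2.14 (SE, the standard error, 0.13, edgeR adjusted p = 1.55e-15), and most of it fell in the last week, at −1.66 (0.12, edgeR adjusted p = 1.25e-11). The path down was not even. Between day 23 and day 31 its log2FC was −0.62 (edgeR adjusted p = 0.00179), and between day 31 and day 38 it was 0.46 (0.00702). The middle steps were less firm. The first was not called without replicate 1 of day 23 (−0.54, edgeR adjusted p = 0.0784), and the second was not called without TMM factors (0.24, edgeR adjusted p = 0.189), nor without replicate 1 of day 31 (0.47, edgeR adjusted p = 0.0507), replicate 2 of day 31 (0.42, 0.078) or replicate 2 of day 38 (0.44, 0.0691).

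ADGRA3, an orphan receptor linked to planar cell polarity, lies at 4:22345071-22516066 on the minus strand. It had 1765 and 1772 counts on day 16, 1448 and 1524 on day 23, 1427 and 1156 on day 31, 1872 and 1907 on day 38, and 768 and 1134 on day 45. In CPM it went from 221 ± 3.96 on day 16 to 140 ± 8.17 on day 31, back to 212 ± 14 on day 38 and to 118 ± 8.74 on day 45. In CPM the groups of adjacent days did not overlap at any step. The first step was −0.40 and missed the threshold (edgeR adjusted p = 0.0515). It was called lower by DESeq2 (adjusted p = 0.0173) and by edgeR with upper-quartile factors (0.0304), filterByExpr (0.0463), the replicate block (0.0462), or without either library of day 45 (0.0469 and 0.0471). The rise on day 38 was 0.60 on the log2 scale (SE 0.14, edgeR adjusted p = 0.00179), and the fall on day 45 was −0.85 (0.14, edgeR adjusted p = 2.91e-05). Without TMM factors the rise was not called (0.38, edgeR adjusted p = 0.0551), and without replicate 2 of day 38 it was not called either (0.53, edgeR adjusted p = 0.0525).

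ADGRL2 is a latrophilin, a receptor for teneurins and FLRT proteins on facing cells, at 1:81306147-81993932 on the plus strand. Its counts were 3155 and 3169, 3952 and 4030, 3854 and 2987, 3305 and 2994, and 1407 and 1794 on the 5 days in order. Its mean CPM ran between 353 and 449 up to day 38 and was 200 ± 5.89 on day 45, lower than in any earlier library. The fall in the last week was −0.82 (SE 0.12, edgeR adjusted p = 7.4e-06). ADGRL1, the latrophilin at 19:14147743-14206187, moved the other way over the course, from 830 and 673 counts on day 16 to 1019 and 1168 on day 45, or 94.1 ± 15.8 to 138 ± 14.4 CPM. The day-45 libraries were both above those of day 16, with log2FC 0.55 (edgeR adjusted p = 0.00842), which was not called without replicate 2 of day 16 (0.39, edgeR adjusted p = 0.111) or replicate 1 of day 45 (0.44, 0.104). ADGRL3, the third latrophilin, had 111 and 119, 204 and 217, 151 and 209, 308 and 242, and 127 and 117 counts on the 5 days. It was highest on day 38, at 30.7 ± 3.6 CPM, and its fall to 15.6 ± 4 CPM on day 45 was −0.98 (edgeR adjusted p = 0.0358). That call rested on single libraries and on the scaling, since edgeR's adjusted p was 0.281 without replicate 1 of day 38, 0.111 without replicate 2 of day 38, 0.29 without replicate 2 of day 45, 0.0519 without TMM factors and 0.0533 with upper-quartile factors. ADGRV1, the very large receptor of the hair cell ankle-link complex, had 1807 and 2182 counts on day 16 and 1020 and 1773 on day 45, or 249 ± 28 and 171 ± 32.2 CPM. The CPM of these days did not overlap, and the difference of −0.54 (edgeR adjusted p = 0.00621) was not called without replicate 2 of day 16 (−0.42, 0.0575) or replicate 1 of day 45 (−0.36, 0.157).

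ADGRF5 and ADGRF1 had 0 counts in both libraries of day 16, were detected on day 23, peaked on day 31 and dropped on day 38. ADGRF5 is known from alveolar type II cells, where it limits the surfactant pool, and from endothelium, and ADGRF1 is known as a receptor for synaptamide, a lipid derived from docosahexaenoic acid. They are neighbours on chromosome 6, both on the minus strand, with ADGRF5 at 6:46852522-46954943 and ADGRF1 at 6:46997708-47042350 and 42764 bases between them. Because these neighbours moved together, 1 RefSeq promoter window of each (GRCh38.p14, 250 bases before to 50 after the start, 5′ to 3′ on the gene's strand) is shown here, with that of ADGRG2, the most abundant member on day 16, for comparison. The windows are chr6:46954890-46955189, chr6:47042283-47042582 and chrX:19122419-19122718, all on the minus strand, and capitals mark the matches to the 5 motifs searched.
ADGRF5: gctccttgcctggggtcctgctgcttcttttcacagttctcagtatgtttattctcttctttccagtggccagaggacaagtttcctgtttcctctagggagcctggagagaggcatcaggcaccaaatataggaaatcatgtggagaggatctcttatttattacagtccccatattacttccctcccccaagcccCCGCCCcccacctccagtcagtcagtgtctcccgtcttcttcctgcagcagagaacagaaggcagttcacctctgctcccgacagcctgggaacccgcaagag
ADGRF1: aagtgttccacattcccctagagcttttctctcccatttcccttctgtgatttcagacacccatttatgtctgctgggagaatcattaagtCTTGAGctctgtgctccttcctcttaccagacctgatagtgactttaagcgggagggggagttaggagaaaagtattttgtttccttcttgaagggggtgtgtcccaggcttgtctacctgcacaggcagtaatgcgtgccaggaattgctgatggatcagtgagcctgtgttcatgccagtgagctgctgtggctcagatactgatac
ADGRG2: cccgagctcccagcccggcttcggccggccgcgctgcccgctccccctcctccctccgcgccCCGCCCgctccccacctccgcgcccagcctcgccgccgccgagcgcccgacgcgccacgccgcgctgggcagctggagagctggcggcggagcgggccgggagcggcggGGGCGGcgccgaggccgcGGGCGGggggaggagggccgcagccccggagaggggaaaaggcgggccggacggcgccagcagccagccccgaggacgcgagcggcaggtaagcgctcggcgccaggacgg
In ADGRF5 the capitals are 1 GC box (spelled GGGCGG, here on the opposite strand, positions −53 to −48 from the start), in ADGRF1 they are 1 match to CTCAAG, the core bound by NKX2-1, on the opposite strand at −159 to −154, and in ADGRG2 they are 3 GC boxes. The ADGRG2 window was 83.3% G and C, against 53% for ADGRF5 and 48.3% for ADGRF1. Both strands were searched in the 34 windows that the table holds for 18 of the 28 members. The cAMP response element, spelled TGACGTCA, was in 0 of the 34, and 1.85% of all 35116 windows held it. Its half-site TGACG, which lies within it, was in 9, and in 24.6% of all windows. The NKX2-1 core named above was in 5 (12.4% of all), the GC box in 14 (45%), and the TATA box, spelled TATAAA, in 1 (11.5%). A match is a description of the letters and says nothing of binding, and no match says only that these letters are not in the window.

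ADGRF5 had 0 and 0 counts on day 16, 65 and 128 on day 23, 556 and 331 on day 31, 79 and 97 on day 38, and 141 and 158 on day 45. Both day-31 libraries were above all others, and, in CPM, the libraries of day 23 and day 38 overlapped. Day 23 was at least 29.1-fold higher than day 16 (against a floor of 3 counts per library on day 16, edgeR adjusted p = 3.06e-09), and day 45 at least 50.3-fold higher (edgeR adjusted p = 2.46e-11). From day 23 to day 31 the gene went from 10.9 ± 5.25 to 47.7 ± 13 CPM, log2FC 2.13 (SE 0.37, edgeR adjusted p = 0.000423). Over the fits that left out 1 library, this log2FC ran from 1.7 to 2.73. That step was not called without replicate 1 of day 31 (1.81, edgeR adjusted p = 0.053). From day 31 to day 38 it dropped to 9.91 ± 1.95 CPM, log2FC −2.27 (0.37, edgeR adjusted p = 2.37e-05), which was called in all 17 alternatives run. The later value, 18.9 ± 2.27 CPM on day 45, was not called against day 38 (0.93, edgeR adjusted p = 0.107). It was called higher when only the libraries of the 2 days were fitted (0.96, edgeR adjusted p = 0.0367).

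ADGRF1 was lower and had the same order of days, with 0 and 0, 28 and 40, 230 and 115, 17 and 17, and 25 and 56 counts. Its day-31 libraries were again above all others. Day 23 was at least 10.2-fold higher than day 16 (edgeR adjusted p = 3.44e-05), and the log2FC of day 38 against day 31 was −3.27 (SE 0.65, edgeR adjusted p = 0.000367). The step from day 23 to day 31, 3.84 ± 1.04 to 18.5 ± 7.18 CPM, was 2.26 (0.61, edgeR adjusted p = 0.0395), and it was lost when any of the 4 libraries of these days was left out, at 2.01 (edgeR adjusted p = 0.259) without replicate 1 and 2.57 (0.129) without replicate 2 of day 23, and at 1.79 (0.543) without replicate 1 and 2.60 (0.0618) without replicate 2 of day 31. Of the other members of this branch, ADGRF2, ADGRF3 and ADGRF4 had at most 15, 53 and 25 counts in a library. ADGRF2 and ADGRF4 overlap on the same strand of chromosome 6, and edgeR called none of the 3 with all libraries (ADGRF3 is taken up with the uncalled members).

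Genes of lung and of endothelium were read in the same libraries, since both tissues express ADGRF5. SFTPB, a surfactant protein gene, had 28 and 12, 1486 and 1300, 4877 and 4312, 61 and 74, and 318 and 460 counts on the 5 days. Its highest day was 31 and its lowest 16, as for ADGRF5, while day 23 stood above day 45, which ADGRF5 did not show. It rose by 5.96 (edgeR adjusted p = 9.46e-20) and 1.68 (1.24e-08) on the log2 scale at the first steps and changed by −6.04 on day 38 (1.41e-21). The other defining genes of alveolar cells stayed low, with SFTPC at 0 to 0.054 mean CPM and SFTPA1 and SFTPA2 at no more than 2.15 and 1.06. In the list of 8 lung epithelial genes, the sum was 28.2 and 16.4 CPM on day 16, 531 and 541 on day 31 and 18.8 and 21.3 on day 38, SFTPB was the most abundant from day 23 on and FOXJ1, a gene of ciliated cells, on day 16, and between 1 and 4 genes were at 0 in each library. Among 8 endothelial genes, PECAM1 was at 0 in all 6 libraries of days 16 to 31, and CDH5 reached at most 1.28 CPM in those 6. On day 38, when ADGRF5 was lower, CDH5 was at 4.43 and 5.47 CPM, above both libraries of day 31, and was not called (2.94, edgeR adjusted p = 0.169). TEK, by contrast, had 7 and 24, 90 and 120, 172 and 218, 44 and 75, and 97 and 59 counts, and was called higher on day 23 (2.61, edgeR adjusted p = 0.00106) and lower on day 38 (−1.67, 0.0164). ESAM, of the same list, was called lower on day 23 (−0.99, edgeR adjusted p = 0.036), though not without replicate 1 of day 16 (−0.67, 0.306) or without replicate 1 (−1.03, 0.126) or replicate 2 of day 23 (−0.95, 0.173). The fall of TEK on day 38 was not called without replicate 2 of day 31 (−1.39, edgeR adjusted p = 0.16) or replicate 1 of day 38 (−1.30, 0.24). KDR was lower on day 38 too (−1.66, edgeR adjusted p = 0.00321), though not without replicate 1 of day 31 (−1.32, 0.0945). The sum of the endothelial list was 63.4 and 50.9 CPM on day 16, 74.6 and 85.4 on day 31 and 38.1 and 43.3 on day 38, with ESAM or KDR the most abundant and 0 to 3 genes at 0. The part of these cells in the course of ADGRF5 and ADGRF1 was not tested. In sorted bulk samples, fewer cells of a type and less RNA per cell cannot be told apart.

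On the log2 scale, ADGRD1 and ADGRG1 had their largest step between day 31 and day 38. ADGRD1, a Gs-coupled receptor that raises cAMP and is bound by PLXDC2, lies at 12:130953907-131141469 on the plus strand. It had 67 and 62 counts on day 16, 88 and 49 on day 23, 34 and 42 on day 31, 447 and 418 on day 38, and 703 and 1178 on day 45. All 4 libraries of days 38 and 45 were above all 6 earlier ones, and days 38 and 45 did not overlap. In CPM the gene went from 4.18 ± 0.995 on day 31 to 48.5 ± 0.277 on day 38 and 115 ± 18.8 on day 45. The log2FCs of these steps were 3.54 (SE 0.29, edgeR adjusted p = 2.28e-11) and 1.25 (0.25, edgeR adjusted p = 0.000463), and both were called in all 17 alternatives. It was the only member called higher by edgeR with all libraries on day 45 against day 38. An antisense gene, ADGRD1-AS1, shares 0.741% of its exon bases and had at most 20 counts.

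ADGRG1, a receptor for collagen III and transglutaminase 2 that signals through G12/13 and RhoA, lies at 16:57610652-57665580 on the plus strand. Its counts were 24 and 38, 66 and 80, 126 and 84, 582 and 409, and 401 and 412 on the 5 days. Days 38 and 45 overlapped each other and stood above all earlier libraries, at 55.2 ± 10.8 and 51.6 ± 9.35 CPM against 11.3 ± 2.21 on day 31. The step to day 38 was 2.28 (SE 0.30, edgeR adjusted p = 4.35e-07) and was called in all 17 alternatives. The first step, from 3.86 ± 1.16 to 8.23 ± 1.29 CPM on day 23, was 1.09 (0.34, edgeR adjusted p = 0.0317), and was not called without replicate 1 of day 16 (0.83, 0.209), replicate 2 of day 23 (0.92, 0.199) or replicate 1 of day 38 (1.09, 0.0536), nor when only the libraries of the 2 days were fitted (1.09, 0.302). ADGRG3, which starts 2696 bases beyond its end, had at most 6 counts in a library, and ADGRG5, on its other side, had between 11 and 70 and was not called.

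Of 4 members with fewer counts, ADGRB1 and ADGRA2 were called higher on day 45 than on day 16, and ADGRB2 and ADGRB3 were not. ADGRB1, a receptor for phosphatidylserine on dying cells, had 0 and 2, 0 and 10, 0 and 6, 53 and 28, and 62 and 52 counts. The 4 late libraries were all above the 6 early ones, and the ratio of day 45 to day 16 was 56.9, with a 95% counting interval of 15.4 to 475 (edgeR adjusted p = 0.00362). Its log2FC of 5.72 became 4.81 without replicate 1 of day 16 and 8.99 without replicate 2, which leaves that day at 0 counts, and the call was kept in both. The step to day 38 missed the threshold (3.67, edgeR adjusted p = 0.0522), and DESeq2 called it (adjusted p = 0.0317), as did edgeR with no low-count filter (0.0168), only the libraries of the 2 days (0.0119) or the replicate block (0.0109). ADGRA2, which works with RECK as a co-receptor for WNT7 in brain vessels, had 28 and 56, 20 and 93, 159 and 97, 187 and 197, and 131 and 190 counts. Its replicates on day 23 lay far apart, and day 45 was above day 16 by 1.92 (SE 0.48, edgeR adjusted p = 0.00251). The log2FC of day 31 against day 23 was 1.10 with all libraries (edgeR adjusted p = 0.322) and 2.63 without replicate 2 of day 23. BRF2 overlaps 23% of the exon bases of ADGRA2 on the opposite strand, with 17 to 51 counts, and without a known strand setting reads of the 2 genes cannot be told apart there. ADGRB2, of the same branch as ADGRB1, had 174 and 129, 39 and 123, 76 and 80, 205 and 217, and 191 and 174 counts, with 19 ± 4.37 CPM on day 16, 8.54 ± 1.08 on day 31 and 23.4 ± 6.17 on day 45. The first step was −1.05 (edgeR adjusted p = 0.0921), and was called lower with the replicate block (−1.10, 0.0297), with no low-count filter (−1.03, 0.0484) and without replicate 2 of day 23 (−2.13, 0.00351). Its rise on day 38 was 1.47 (0.40, edgeR adjusted p = 0.00893), and was not called without replicate 1 of day 31 (1.33, 0.111) or replicate 2 of day 38 (1.37, 0.0676). ADGRB3, a receptor for C1q-like proteins at synapses, had 108 and 72, 88 and 118, 224 and 226, 205 and 217, and 52 and 72 counts, and the deposited tables list the same counts for it and ADGRB2 on day 38. It was highest on days 31 and 38, and its fall on day 45 was −1.62 (0.36, edgeR adjusted p = 0.00199).

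Genes of other cell types, and epithelial keratins, changed in the same week as ADGRD1 and ADGRG1. At that step, as given above, 8.8% of all genes were called higher and 6.23% lower. Of 6 epithelial genes, 2 fell on day 38, KRT18 (−1.07, edgeR adjusted p = 7.67e-08) and KRT8 (−0.48, 0.00318), and EPCAM and CDH1 were not called (0.18 and 0.16). KRT8 was not called without replicate 2 of day 31 (−0.41, edgeR adjusted p = 0.0626) or replicate 2 of day 38 (−0.40, 0.0897). The sum of the list was 1788 and 1902 CPM on day 31 and 1773 and 1528 on day 38, with CDH1 or KRT8 the most abundant and none at 0. The summed level of 8 mesenchymal genes was 684 and 750 CPM on day 31 and 2380 and 2451 on day 38, with COL1A1 or COL1A2 the most abundant. COL1A2 rose by 2.67 (edgeR adjusted p = 2.63e-16) and COL1A1 by 1.75 (1.22e-12), and TWIST1 had a mean of 0.661 CPM on day 38. LUM went the other way (−1.23, edgeR adjusted p = 2.8e-06), and PDGFRA was called higher (1.04, 0.0263), though not when any of the 4 libraries of the 2 days was left out (adjusted p = 0.0846, 0.181, 0.0753 and 0.152) or without TMM factors (0.0885). In all, 3 of the 8 rose and 1 fell. The sum of 6 muscle genes was 30.2 and 29.1 CPM on day 31 and 235 and 207 on day 38, with MYH6 at 15.5 and 92.5 mean CPM, and 4 of the 6 rose (ACTC1, DES, MYH6 and MYL7). Of 8 neural genes, SNAP25 (2.78, edgeR adjusted p = 8.55e-05) and TUBB3 (1.20, 0.0219) were called higher and ELAVL4 lower (−3.49, 0.000859), and SOX10, which defines glia, had a mean of 0.578 CPM. TUBB3 was not called without TMM factors (0.98, edgeR adjusted p = 0.0677), replicate 1 of day 31 (0.98, 0.196), replicate 1 of day 38 (1.07, 0.231) or replicate 2 of day 38 (1.33, 0.0866). From day 38 to day 45, where ADGRD1 rose again, 3 of the 8 mesenchymal genes were called higher, where the shares of all genes were 4.85% higher and 6.35% lower, namely DCN (1.36, edgeR adjusted p = 0.00041), LUM (0.94, 0.000279) and PDGFRA (1.25, 0.00636), while the sum of the list was 2376 and 1944 CPM on day 45. DESeq2 did not call DCN (1.40, adjusted p = 0.0741), and edgeR did not call PDGFRA without replicate 1 of day 38 (1.17, adjusted p = 0.0872). Of 8 myeloid genes, 6 were tested, and 3 were called higher at this step (CD14, CD68 and CSF1R). On day 38 CD14 and CSF1R had been called lower than on day 31, from 2.42 mean CPM to 0 for CD14 (edgeR adjusted p = 0.00844) and from 2.99 to 0.399 for CSF1R (0.0316). Both of those calls were lost without either library of day 38 (0.108 and 0.0981 for CD14, 0.299 and 0.0887 for CSF1R), and that of CSF1R also without either library of day 31 (0.0791 and 0.0613). The summed level of the list was 19.7 and 18.2 CPM on day 31, 17 and 8.5 on day 38 and 55.6 and 58.4 on day 45, with CD68 the most abundant, at 8.11 and 36.2 mean CPM (2.15, edgeR adjusted p = 0.000526). Each of the 3 calls on day 45 was lost without 1 of the libraries of day 38, at adjusted p = 0.0922 or 0.0925 for CD14 (either library), 0.0513 for CD68 and 0.0908 for CSF1R. NKX2-1 fell at this step (−1.20, edgeR adjusted p = 6.3e-07). On day 38 TG, the thyroglobulin gene, rose by 4.66 (edgeR adjusted p = 2.37e-25), from 1953 and 1818 to 51356 and 41868 counts. The part of any of these cells in the course of ADGRD1 and ADGRG1 was not tested.

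**Figure D3:**
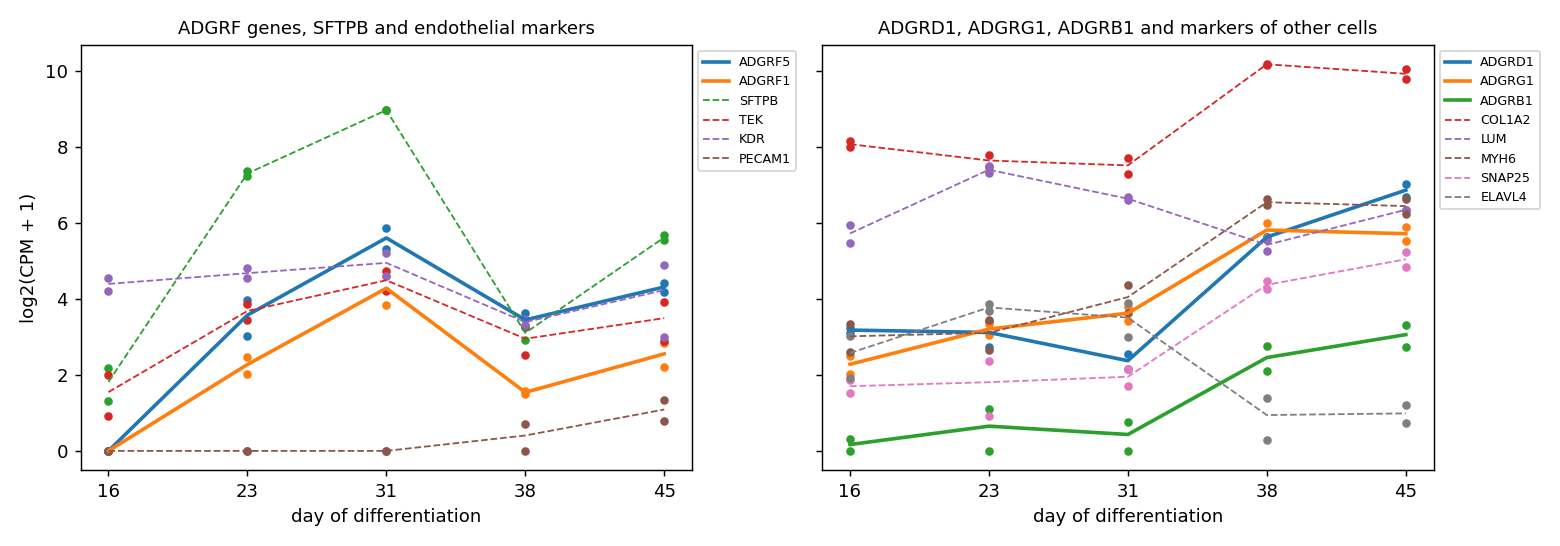
log2(CPM + 1) (vertical) by day (horizontal), with points for libraries and lines through the daily means, solid for members and dashed for markers. On the left, ADGRF5 and ADGRF1 share the day-31 peak of SFTPB and TEK while PECAM1 stays at 0 until day 38; on the right, ADGRD1 and ADGRG1 step up on day 38, as do COL1A2, MYH6 and SNAP25, while LUM and ELAVL4, of the same mesenchymal and neural lists, step down.

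ADGRG6, which raises cAMP in Schwann cells at the onset of myelination and binds collagen IV and laminin-211, rose early and stayed above its first level. It lies at 6:142301854-142446266 on the plus strand. Its counts were 274 and 223 on day 16, 439 and 574 on day 23, 881 and 706 on day 31, 679 and 612 on day 38, and 555 and 613 on day 45. Day 16 was below every later library, and days 38 and 45 overlapped. The first step was 0.88 (SE 0.20, edgeR adjusted p = 0.00248), and was not called without replicate 2 of day 23 (0.65, 0.111). Day 45 was above day 16 by 1.24 (0.20, edgeR adjusted p = 7.98e-06), at 73.8 ± 9.63 against 31.1 ± 5.15 CPM, and that call was made in all 17 alternatives.

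**Figure D4:**
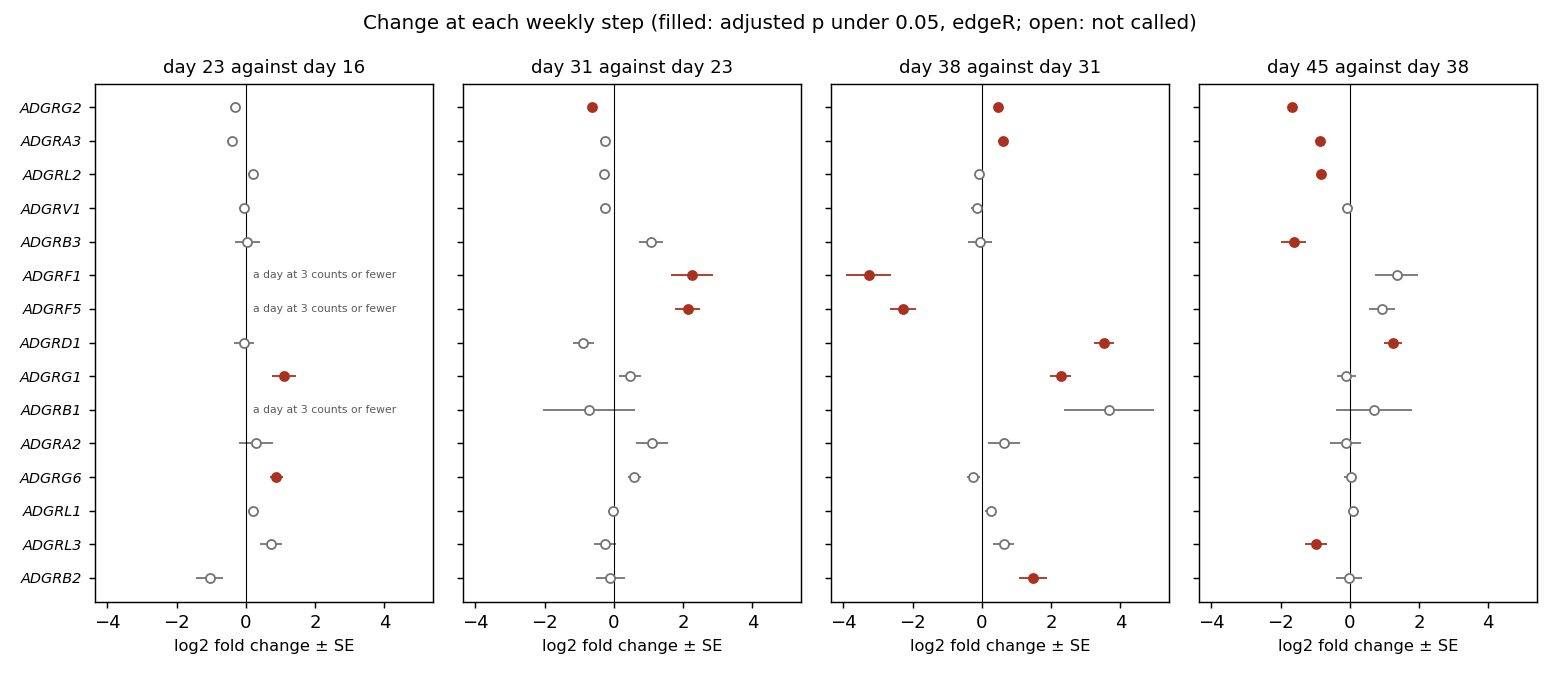
log2FC (horizontal) with its SE at each of the 4 consecutive steps for the 15 called members, filled where edgeR's adjusted p was under 0.05. Comparisons with a day at 3 counts or fewer over both libraries are marked in words. Among the called values drawn, those farthest from 0 are on day 38, 3.54 for ADGRD1 and −3.27 for ADGRF1.

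The remaining 9 tested members were called in none of the 5 comparisons by edgeR with all libraries. ADGRE5, a receptor for CD55 on leukocytes and many epithelia, was the highest of them, with 68 to 158 counts in a library and daily means of 8.68 to 17.2 CPM. It differed at an unadjusted p under 0.05 at the first 3 steps, with log2FCs of −0.91, 0.99 and −0.89, and the third was called without TMM factors (−1.11, edgeR adjusted p = 0.0438). ADGRE2 had at most 22 counts and was called lower on day 23 by DESeq2 (adjusted p = 0.0178). ADGRE2, ADGRE3 and ADGRE5 are near-identical in parts, so that reads of one may have been counted for another. ZNF333, with 94 to 242 counts, overlaps 15.7% of the exon bases of ADGRE2 on the opposite strand, and SELENOI, with 441 to 884, overlaps 8.45% of those of ADGRF3. ADGRF3 went from 12 and 4 counts on day 38 to 53 and 43 on day 45 and missed the threshold (2.78, edgeR adjusted p = 0.0532). DESeq2 called this step (2.85, adjusted p = 0.0247), as did edgeR with no low-count filter (adjusted p = 0.0362), upper-quartile factors (0.0478), no TMM factors (0.049), only the libraries of the 2 days (0.00609) or the replicate block (0.0342), and when any library of day 16 or day 23 was left out. ADGRG7 and ADGRL4, the latter known from endothelium, had at most 20 and 7 counts. The 4 members under the filter were ADGRA1, with at most 8 counts, ADGRE3 with 6, ADGRG4 with 3 and ADGRE1 with 0 in all 10 libraries. Levels under the floor were not detectable at this depth, and differences among these members could not be read.

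The CELSR genes act in planar cell polarity. CELSR1 had 499 and 502 counts on day 16, 735 and 776 on day 31, 2184 and 2149 on day 38 and 1318 and 1651 on day 45. Its step to day 38 was 1.55 (SE 0.15, edgeR adjusted p = 6e-10), the same step at which ADGRD1 and ADGRG1 rose. CELSR2 was called higher on day 23 (0.57, edgeR adjusted p = 0.0253), and this was lost without replicate 2 of day 16 (0.32, 0.311), replicate 1 of day 23 (0.49, 0.191) or replicate 2 of day 23 (0.65, 0.0609). CELSR3 was called higher on day 45 against day 38 (1.21, edgeR adjusted p = 0.0135), and this was lost without replicate 1 of day 38 (1.35, 0.0595), replicate 2 of day 38 (1.09, 0.161) or replicate 2 of day 45 (0.76, 0.303).

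Of 33 genes for ligands and partners of the members, 32 were tested and WNT7A was at 0 in all libraries. At the first step 9 rose and 7 fell, against 5.6% of all genes called higher and 5.33% lower. On day 31 1 rose and 4 fell, against 1.58% and 0.666%, on day 38 7 and 3, against 8.8% and 6.23%, and on day 45 3 and 6, against 4.85% and 6.35%. The median log2FC of the list was 0.25, −0.06, 0.27 and −0.17 at these steps, where that of all genes was −0.02, 0.00, 0.00 and −0.02. For ADGRG1, COL3A1 rose by 1.10 on day 38 (edgeR adjusted p = 7.83e-07) and TGM2 by 1.89 (0.000269). On day 23, where ADGRG1 was also called higher, COL3A1 rose by 1.22 (edgeR adjusted p = 2.27e-07) and TGM2 fell (−2.07, 0.00085). CD81, a tetraspanin found in complex with ADGRG1, was called higher on day 23 too (0.67, edgeR adjusted p = 0.0069). That call was lost without replicate 1 of day 23 (0.58). CD81 was at 93.2 and 112 mean CPM on days 31 and 38. For ADGRG6, the collagen IV genes COL4A1 and COL4A2 fell on day 23 (−1.16, edgeR adjusted p = 1.6e-07, and −1.51, 4.02e-09) and rose on day 38 (2.92, 2.96e-17, and 2.76, 1.68e-15), so they were at their lowest while ADGRG6 reached its highest mean. LAMA2, which encodes the alpha chain of laminin-211, rose on day 23 as ADGRG6 did (0.95, edgeR adjusted p = 0.0294) and again on day 38 (1.09, 0.00372). The first of these was not called without replicate 2 of day 16 (0.87, edgeR adjusted p = 0.125), replicate 2 of day 23 (0.44, 0.529) or when only the libraries of the 2 days were fitted (0.95, 0.143), and the second not without replicate 1 of day 31 (0.95, 0.0803). For the latrophilins, TENM4 and the FLRT partner UNC5C fell at both of the last steps, with log2FCs of −1.41 and −0.85 for TENM4 (edgeR adjusted p = 1.37e-08 and 0.000275) and of −1.07 and −0.83 for UNC5C (2.08e-09 and 7.79e-07), while TENM2 rose by 3.92 on day 38 (2.14e-10). FLRT3 was higher on day 45 than on day 16 by 2.90 (edgeR adjusted p = 9.58e-11). FLRT2 was called higher on day 23 and lower on day 45, the latter not without replicate 2 of day 38 or of day 45. TENM3 was called lower on days 31, 38 and 45, from 372 mean CPM on day 23 to 121 on day 45. The calls on days 31 and 38 were lost when any library compared was left out. On day 23 TENM4 (0.61) and UNC5C (1.29) had risen, while TENM1 and TENM2 fell. Without replicate 2 of day 23, TENM4 and TENM1 were not called. PLXDC2, the ligand of ADGRD1, was at 62.1 CPM on day 31 and 61.7 on day 38, where its receptor rose. On day 23, where ADGRD1 was not called, PLXDC2 was called higher (0.76, edgeR adjusted p = 0.00954). That call was lost without replicate 2 of day 23 (0.73). CD55, the ligand of ADGRE5, fell by 1.05 on day 23 (edgeR adjusted p = 1.1e-05) and rose by 1.18 on day 45 (1.3e-06). SFTPD, a surfactant protein bound by ADGRF5, had daily means of 1.07 to 3 CPM and was called in no comparison. Of the partners of ADGRA2, RECK was called lower on day 45 than on day 16, at 19.6 against 60.5 mean CPM. WNT7B was called higher, with a ratio of 45.4 and a 95% counting interval of 12.2 to 381, since day 16 held 2 counts. For ADGRB3, C1QL2 was at 0 in both libraries on days 16 and 31, and day 38 was at least 14.5-fold higher than day 31 (edgeR adjusted p = 0.000498), while its receptor did not pass the test at that step.

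On the side of signalling, 21 genes for G proteins and effectors were all tested. At the first step 1 rose (ARHGEF12) and 1 fell (GNAI1), near the 5.6% and 5.33% of all genes, at the second 0 and 0 (1.58% and 0.666% of all genes), on day 38 4 rose (GNA12, GNA13, GNAI1 and RHOA) and 2 fell (ARHGEF11 and ARRB1), against 8.8% and 6.23%, and on day 45 0 rose and 1 fell (GNAI2), against 4.85% and 6.35%. The median log2FC of this list was 0.04, 0.01, 0.10 and −0.16 at the 4 steps. The call of ARHGEF12 on day 23 (0.50, edgeR adjusted p = 0.00498) was lost without replicate 2 of that day, at a log2FC of 0.49. The call of ARHGEF11 (−0.51, edgeR adjusted p = 0.0239) was lost when any of the 4 libraries of days 31 and 38 was left out (adjusted p = 0.0694, 0.115, 0.182 and 0.142), and that of GNAI2 (−0.67, 0.00914) without replicate 1 of day 38 (0.101) or replicate 2 of day 45 (0.0742). Beside these counts of 0, edgeR gave 3 genes higher and 0 lower at an unadjusted p under 0.05 at the second step (6.75% and 4.61% of all genes) and 1 higher and 4 lower on day 45 (9.89% and 12.5%). DESeq2 called 0 at the second step (2.09% and 1.06%) and 1 higher and 1 lower on day 45 (6.97% and 7.15%). GNAS, which encodes Gs alpha, was the most abundant of the list, with daily means of 1119 to 1245 CPM. RHOA rose by 0.93 on day 38 (edgeR adjusted p = 1.05e-06), from 239 to 457 CPM, and GNAI1 by 1.45 (1.14e-08). ARRB1, the gene of beta-arrestin 1, went from 94 to 19.7 CPM, a change of −2.25 (edgeR adjusted p = 1.52e-08). GNA13 rose by 0.72 (edgeR adjusted p = 0.000957), and was not called without replicate 1 of day 31 (0.52, 0.0836). GNA12 rose by 0.60 (edgeR adjusted p = 0.0181) and was not called without TMM factors (0.38, 0.158), without replicate 1 (0.53, 0.157) or replicate 2 of day 31 (0.65, 0.0661), or without replicate 1 (0.54, 0.196) or replicate 2 of day 38 (0.66, 0.0754).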

How the data were processed

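Live NKX2-1GFP+ cells were sorted from organoids of 1 line, and by the study's methods each day has 2 biological replicates made from pooled wells. Reads were trimmed (Trimmomatic), mapped to GRCh38 (HiSat2) and assigned to genes (HTSeq) by the authors, who used the Ensembl GRCh38.p13 annotation and deposited raw counts, which are whole numbers with no normalization. The strand setting of the counting is not given in the sources used here. Every second row of the tables was blank and was dropped, which left 28265 symbols. The reads carry no molecular identifiers named in these sources, so intervals and floors cover counting error only. Replicates of a day differed by more than sampling noise, with a chi-square per degree of freedom of 8.38 to 13.7 and r of 0.965 to 0.984 across genes.

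A gene was fitted if 2 libraries or more had 5 counts or more, with edgeR 4.0.16 in R 4.3.3 (quasi-likelihood F test, TMM factors from 0.896 to 1.07, 1 mean per day over all 10 libraries, 5 residual degrees of freedom). P-values were adjusted by Benjamini-Hochberg over 21014 genes at 0.05. Standard errors were derived from the fold change and the F statistic and are approximate. Fits leaving a day with 1 library assume that it varies as the others do. The steps were tested on simulated data. A first requirement on the share of changed genes called was not met there. The dispersion used for the simulation was then changed and the requirement replaced by a looser one, which was met, with most changed genes still not called, so a gene that missed the threshold here may well have changed. Folds against a day at 0 are lower bounds from 3 counts per library. Positions, lengths and overlaps are from GENCODE 44, where all 28 members were matched, and promoters are from RefSeq. Members called in at least 1 comparison are given with every count, except ADGRL1 and ADGRV1, given for the first and last day only. The other tested members are given by their range or highest count, and those under the filter by their highest count. Other genes come from fixed lists of ligands and partners, G proteins and effectors, thyroid genes and cell type markers, except overlapping genes, which the annotation gave. The members and lists were chosen with earlier results of these data known. Alternatives were DESeq2 1.42.0, filterByExpr, no filter on low counts, upper-quartile factors, library sizes with no TMM factors, the replicate number as a block, only the libraries of the 2 days compared, a minimum log2 change of 1, and leaving out each library.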

Additional observations from a re-analysis of the deposited data

How the results depend on the processing

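The 32 member calls kept their sign under all alternatives run. All 32 were kept with DESeq2, with no low-count filter, with filterByExpr and with the replicate block, 31 with upper-quartile factors, 31 with only the libraries of the 2 days compared, 29 without TMM factors and 21 when a log2 fold change of at least 1 was also asked for. Leaving out each library gave 320 values, of which 297 kept the call, and 11 of the 32 calls were lost at least once. The number of members called ranged from 3 to 5 at day 23 against day 16 (4 with all libraries), from 1 to 3 at day 31 against day 23 (3), from 4 to 8 at day 38 against day 31 (7), from 5 to 7 at day 45 against day 38 (6), from 10 to 12 at day 45 against day 16 (12) and from 13 to 16 for any day (15). The lowest count came at the second step from leaving out replicate 1 of day 23 or replicate 1 of day 31, and at the third from leaving out replicate 2 of day 38. DESeq2 called 7 members at day 23 against day 16, with ADGRA3, ADGRE2 and ADGRG2 added as lower. The fit of only the libraries of the 2 days compared called 5 at day 31 against day 23, with ADGRB3 and ADGRG6 added as higher. The rule with a log2 fold change of at least 1 called 3 at day 45 against day 38. The causes of these differences in count were not tested. Without TMM factors, 33.3% of the genes called at day 38 against day 31 were higher, where it was 58.5% with them. Replicate numbers did not pair the libraries, since deviations of same-numbered libraries correlated with r from −0.042 to 0.041 over the 10 pairs of days, and the replicate block called 6, 3, 8, 7 and 12 members in the 5 comparisons and 15 for any day, with ADGRA3 and ADGRB2 added as lower at day 23 against day 16. Members with fewer than 3 counts per library were below what this depth can show.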
